A study of Mus musculus with 24 samples.

Results

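The genes described here are 37 genes of inner ear neurons, chosen by name for their known use by neurons, with earlier results of these data known. They code for neurofilaments, axonal and microtubule proteins, synaptic vesicle proteins, ion channels, calcium-binding proteins, neuronal RNA-binding proteins and surface receptors. All 37 were among the 18440 genes listed in the inner ear count table, and all 37 passed the filter on low counts that left 15525 genes to test. The study measured RNA by bulk sequencing in mouse inner ear at 3 ages and in cochlear organoids. The inner ear groups were male C57BL6/J wild-type mice without treatment, aged 3, 11 and 20 months, with 4 mice per age. Bone was removed and the remaining soft tissue was used whole, so that neurons, Schwann cells, sensory epithelium and connective tissue were measured together, and the sample titles call the tissue cochlea. The 12 inner ear libraries held 30599012 to 38451292 counts. Because the tissue was measured in bulk, fewer neurons and less RNA per neuron cannot be told apart in any result below.

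The cell bodies of cochlear neurons lie in the spiral ganglion and those of vestibular neurons in the vestibular ganglion. Both are bipolar cells that carry signals from hair cells to the brainstem. Most spiral ganglion neurons are myelinated type I cells that contact inner hair cells, and a smaller type II population contacts outer hair cells and expresses peripherin. Their fast, precisely timed firing relies on voltage-gated sodium and potassium channels, on a neurofilament-filled axon and on glutamate release from central synapses.

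The promoters of 26 of the 37 genes were found in a RefSeq table of the GRCm38.p6 build, and 4 are shown as the 250 bases before the gene's start. Slc17a7, Stmn3 and Kcnc1 are shown because they had the smallest p between 20 and 3 months among members with 1 start in the table. Syn1 is shown because it alone among the members held the left arm of RE1 and the cyclic AMP response element searched for next. Capitals mark the motifs searched on both strands, which were the left arm of the RE1 element bound by the neuronal repressor REST (TTCAGCACC), its right arm (GGACAG), the full cyclic AMP response element (TGACGTCA), the GC box (GGGCGG), the TATA box (TATAAA) and the E-box (CACGTG).
Slc17a7, chr7:45163671-45163920, plus strand: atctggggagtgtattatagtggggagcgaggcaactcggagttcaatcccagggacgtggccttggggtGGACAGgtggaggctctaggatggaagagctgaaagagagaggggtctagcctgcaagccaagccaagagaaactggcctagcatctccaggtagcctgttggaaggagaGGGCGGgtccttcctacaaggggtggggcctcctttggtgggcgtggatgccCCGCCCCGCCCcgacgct
Stmn3, chr2:181314501-181314750, minus strand: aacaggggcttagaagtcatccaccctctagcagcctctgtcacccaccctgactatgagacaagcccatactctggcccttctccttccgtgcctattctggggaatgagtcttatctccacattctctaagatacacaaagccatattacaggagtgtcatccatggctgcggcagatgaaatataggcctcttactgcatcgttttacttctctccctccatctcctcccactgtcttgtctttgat
Kcnc1, chr7:46396218-46396467, plus strand: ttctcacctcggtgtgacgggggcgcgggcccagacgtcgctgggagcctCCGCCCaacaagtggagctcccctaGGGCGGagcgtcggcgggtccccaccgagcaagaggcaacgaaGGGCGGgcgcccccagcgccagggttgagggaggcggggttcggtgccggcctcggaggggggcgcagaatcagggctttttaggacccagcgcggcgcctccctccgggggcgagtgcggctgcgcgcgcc
Syn1, chrX:20920919-20921168, minus strand: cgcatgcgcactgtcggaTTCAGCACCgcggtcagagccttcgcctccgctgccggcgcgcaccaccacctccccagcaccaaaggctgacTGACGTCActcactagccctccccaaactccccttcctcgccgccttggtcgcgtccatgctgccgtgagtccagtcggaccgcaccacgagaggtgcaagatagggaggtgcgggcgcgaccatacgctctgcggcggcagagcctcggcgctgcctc

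These promoters differed in composition. G and C made up 61.2% of the Slc17a7 window, 48.8% of that of Stmn3, 74.4% of that of Kcnc1 and 68.0% of that of Syn1, against a median of 61.2% over the starts of the members and 52.4% over all starts in the table. The RE1 left arm stood in 1 of 26 member promoters, that of Syn1, and in 0.348% of all genes. The full cyclic AMP response element also stood in that of Syn1 alone among the members and in 1.77% of all genes. The GC box was found in 15 of 26 members, or 57.7%, and in 35.4% of all genes. The RE1 right arm was found in 5 members and 21.0% of all genes, the TATA box in 3 members and 14.3% of all genes, and the E-box in 0 members and 6.86% of all genes. No match says only that these letters are not in the window, and a match is not a bound site.

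The levels of the genes in the inner ear spanned a wide range on the FPKM scale, which divides by gene length and so allows levels of different genes to be set side by side. Calb2, which codes for the calcium-binding protein calretinin, was the most abundant member, with a mean of 1366 FPKM over the 12 libraries and a range of 989 to 1843 FPKM. Snap25, a core protein of vesicle fusion, followed with 856 FPKM, and its range of 560.1 to 1062 FPKM overlapped that of Nefm (412 to 915 FPKM), the medium neurofilament chain. The heavy and light chains Nefh and Nefl averaged 647 and 480.4 FPKM, and the release regulator Cplx1 averaged 561 FPKM. The lowest members were Gap43, a growth cone protein, at 1.90 FPKM and Stx1a, a membrane partner of Snap25, at 1.61 FPKM. Of the 2 synaptotagmins, the calcium sensors of release, Syt2 averaged 78.9 FPKM and Syt1 5.47 FPKM.

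**Figure D1:**
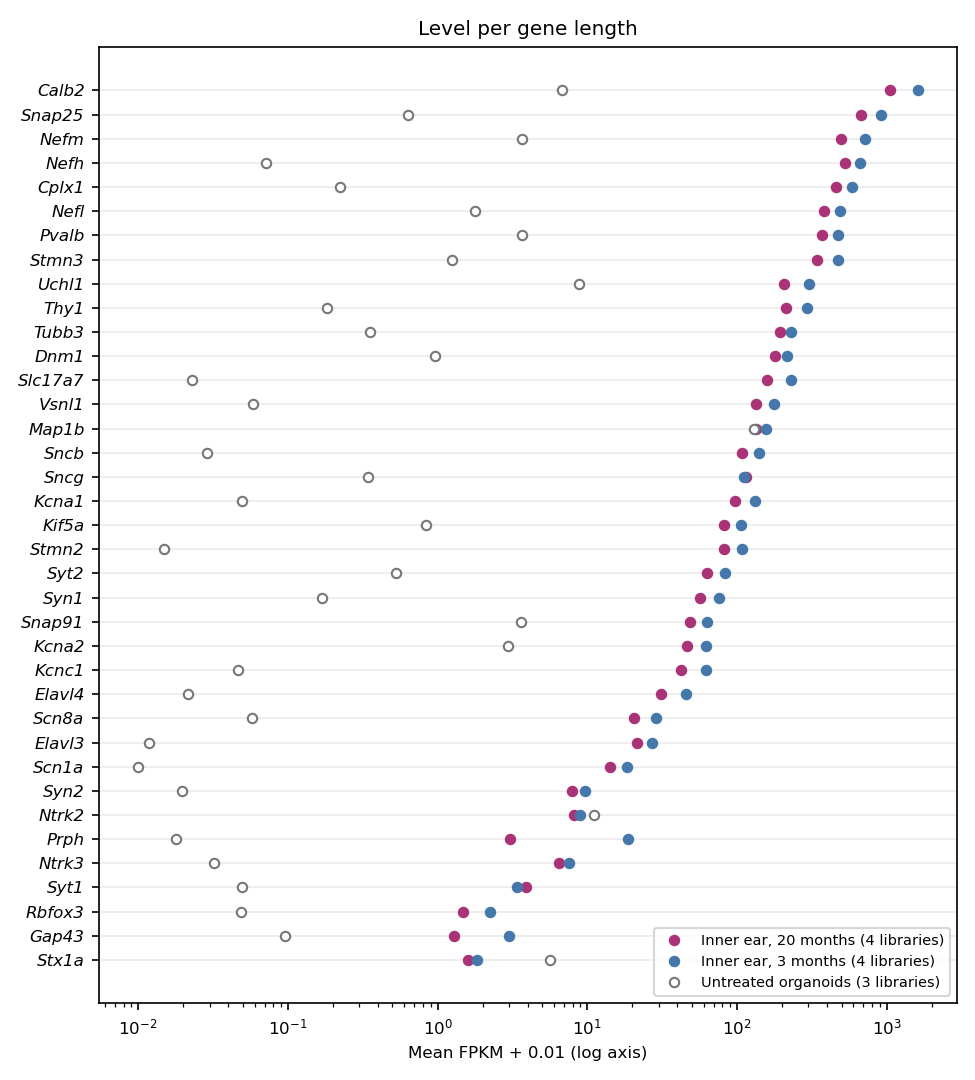
Mean FPKM plus 0.01 (log axis) of each of the 37 genes in inner ear at 20 and 3 months (4 libraries each, filled points) and in untreated organoids (3 libraries, open points), ordered by the mean of the 12 inner ear libraries. Calb2 leads at 1366 FPKM and Stx1a closes the order at 1.61 FPKM, and in organoids Map1b has the highest point.

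In untreated cochlear organoids, grown from the cochlear epithelium of newborn mice, most of these genes were near 0 FPKM. Map1b, a microtubule-associated protein that is not restricted to neurons, was the exception with 129.7 FPKM. Ntrk2, the receptor of brain-derived neurotrophic factor, had 11.1 FPKM, Uchl1, a ubiquitin hydrolase, 8.84 FPKM, Calb2 6.77 FPKM and Stx1a 5.63 FPKM. The organoid and inner ear tables were scaled separately by the authors, and these values are set side by side without a test.

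At 20 months compared with 3 months, the neuronal genes were lower. Of the 37 genes, 24 fell and 0 rose (edgeR quasi-likelihood test, adjusted p under 0.05 over all genes tested), against a background of 10.7% of all genes called lower and 12.0% called higher. The log2 fold change was below 0 in 35 of 37 genes, against 48.5% of all genes, and the median over the members was -0.43 against 0.01 over all genes. In 13 members every library at 20 months lay below every library at 3 months, against 10.6% of all genes. The calls were spread over every functional subgroup, with 3 of 4 neurofilament genes, 3 of 7 axonal and microtubule genes, 8 of 12 synaptic vesicle genes, 4 of 5 ion channels, 3 of 3 calcium-binding proteins, 2 of 3 RNA-binding proteins and 1 of 3 receptors and surface proteins called lower. The subgroup medians ran from -0.26 for receptors and surface proteins to -0.60 for RNA-binding proteins, and no difference between subgroups was tested.

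**Figure D2:**
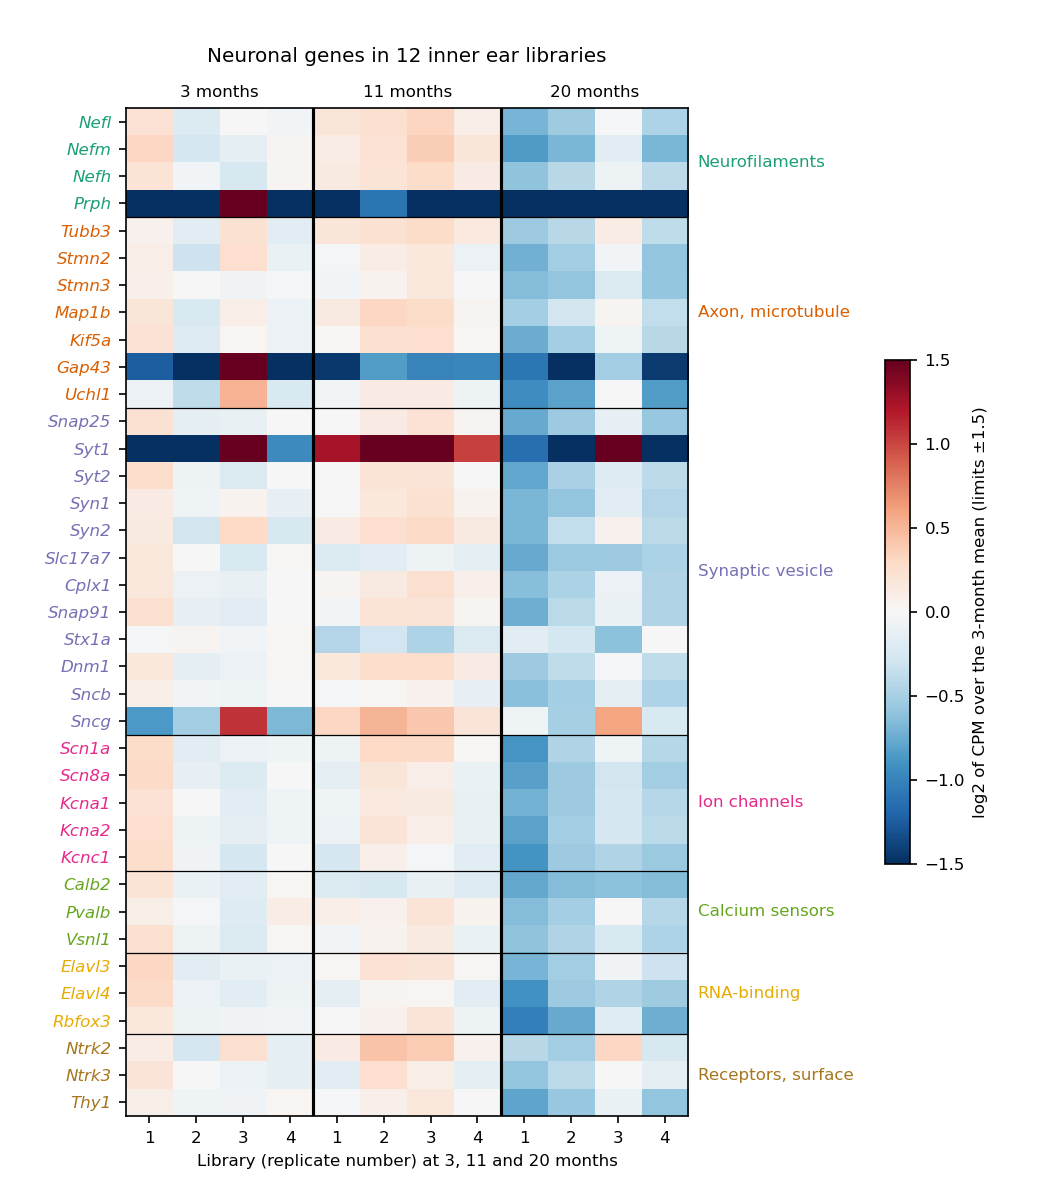
Level of each gene (rows, grouped by function) in each of the 12 inner ear libraries (columns, by age and replicate), as log2 of CPM over the mean of the 3-month libraries, with colours limited to 1.5 in either direction. Most rows are blue at 20 months, least so in replicate 3, and Prph, Gap43, Syt1 and Sncg stand apart from the other rows.

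Calb2 had the smallest p of the members. In CPM, the count scaled to the size of the library, it had 2731, 2218, 2125 and 2426 at 3 months, 2042, 2011, 2202 and 2075 at 11 months, and 1399, 1516, 1555 and 1507 at 20 months. All 4 libraries at 20 months lay below all others. It averaged 1494 ± 66.9 CPM at 20 months and 2375 ± 269 CPM at 3 months (SD, n = 4 each), a log2 fold change of -0.67 (SE 0.08, edgeR adjusted p = 0.000308). Pvalb, which codes for parvalbumin and is also used by fast muscle, averaged 382 ± 76.6 CPM at 20 months and 495 ± 45.9 CPM at 3 months and was called with a log2 fold change of -0.38. Summed skeletal muscle markers stood at 11.8 to 23.3 CPM at 20 months and 19.5 to 146 CPM at 3 months, and their part in the Pvalb result was not tested. Vsnl1, a neuronal calcium sensor, changed by -0.43 on the log2 scale without overlap between the ages.

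Among synaptic vesicle genes, Slc17a7, the vesicular glutamate transporter VGLUT1, had the clearest difference. Its libraries held 769.8, 687, 586 and 696 CPM at 3 months, 588, 611, 647 and 621 CPM at 11 months, and 406, 466, 469 and 491 CPM at 20 months. The highest value at 20 months lay below the lowest at 3 months. The means were 458 ± 36.4 CPM at 20 months and 684 ± 75.7 CPM at 3 months, a log2 fold change of -0.58 (SE 0.08, adjusted p = 0.000806). Sncb, which codes for beta-synuclein, averaged 155 ± 23.1 CPM at 20 months and 209 ± 10.1 CPM at 3 months (log2 fold change -0.42, SE 0.09, adjusted p = 0.00563). Syn1, a protein that tethers vesicles to the cytoskeleton and whose promoter carries the marked motifs above, had 154, 164, 220.0 and 182 CPM at 20 months, against 269, 236, 256 and 227 CPM at 3 months. Its ages did not overlap, and the log2 fold change was -0.46 (SE 0.10, adjusted p = 0.00756). Exons of Syn1 overlap those of Araf, and reads in shared exons cannot be assigned in unstranded libraries. Snap25, the most abundant vesicle gene, had 1329, 1534, 2069 and 1515 CPM at 20 months, against 2641, 2032, 2076 and 2234 CPM at 3 months. Its replicate 3 at 20 months lay within the 3-month range, and the log2 fold change was -0.48 (SE 0.13, adjusted p = 0.0174). Cplx1, Syt2, Snap91 and Dnm1, the last 2 of which act in vesicle retrieval, were also called lower, with log2 fold changes from -0.45 to -0.32. Syn2, whose exons overlap those of Timp4, and Stx1a were not called, at -0.33 and -0.24.

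Among axonal genes, Stmn3, a regulator of microtubule dynamics, had 571, 538, 520.2 and 536 CPM at 3 months, 528, 561, 609.7 and 541 CPM at 11 months, and 344, 359, 467 and 363 CPM at 20 months. Replicate 3 was the highest at 20 months and still lay below every 3-month library. The means were 383 ± 56.7 CPM at 20 months and 541 ± 21.6 CPM at 3 months, a log2 fold change of -0.50 (SE 0.09, adjusted p = 0.00277). The kinesin motor Kif5a and Stmn2, a protein of axon maintenance, were called at -0.41 and -0.45, whereas Tubb3, the neuronal tubulin, and Map1b had log2 fold changes of -0.28 and -0.26 that were not called (adjusted p = 0.133 and 0.135). The neurofilament chain Nefm had 1298, 1444, 2093 and 1445 CPM at 20 months, against 2879.6, 1947, 2102 and 2391 CPM at 3 months. Replicate 3 at 20 months again lay within the 3-month range. Its log2 fold change was -0.57 (SE 0.15, adjusted p = 0.0171), and Nefl and Nefh followed at -0.40 and -0.36. Exons named Nefl and Nefm overlap each other in GENCODE, whereas the RefSeq spans of the genes lie apart. Whether their counts share reads was not tested.

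All 5 ion channel genes were lower at 20 months by value and 4 were called. Kcnc1, the fast potassium channel Kv3.1, had 336, 429, 456 and 425 CPM at 20 months, against 752, 602, 518 and 624 CPM at 3 months. Its ages did not overlap, and the log2 fold change was -0.60 (SE 0.12, adjusted p = 0.00426). Kcna1, the potassium channel Kv1.1 and the most abundant of the channels, averaged 853 ± 110.5 CPM at 20 months and 1189 ± 140.2 CPM at 3 months (log2 fold change -0.48, SE 0.11, adjusted p = 0.00822). Kcna2 and the nodal sodium channel Scn8a were called at -0.48 and -0.53, and the sodium channel Scn1a, at -0.43, was not (adjusted p = 0.0674).

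Among RNA-binding proteins, Elavl4, a neuronal Hu protein that stabilizes transcripts, had 158, 203, 218 and 206 CPM at 20 months, against 361, 279, 267 and 281 CPM at 3 months. The ages did not overlap, and the log2 fold change was -0.60 (SE 0.11, adjusted p = 0.00314). Rbfox3, the splicing factor known as the neuronal marker NeuN, averaged 33.3 ± 8.67 CPM at 20 months and 51.9 ± 4.11 CPM at 3 months (log2 fold change -0.64, SE 0.14, adjusted p = 0.00786). Elavl3 had a log2 fold change of -0.37 that was not called, and its exons overlap those of a predicted gene. Thy1, a surface glycoprotein of neurons and of T cells, averaged 365 ± 77.5 CPM at 20 months and 512 ± 26.4 CPM at 3 months (log2 fold change -0.49, SE 0.12, adjusted p = 0.0108). Summed T cell markers stood at 6.61 to 12.9 CPM at 20 months and 1.83 to 2.90 CPM at 3 months. Of these 6 markers, 5 averaged under 1 CPM at 3 months. The part of T cells in the Thy1 result was not tested. The neurotrophin receptors Ntrk2 and Ntrk3 were not called, at -0.18 and -0.26.

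The count of 24 depended on which libraries were used. The 13 members without overlap kept their calls with each of the 8 libraries left out in turn, and each of the other 11 lost its call without at least 1 library. Dropping either replicate 1 (at 3 or at 20 months) left 13 members called, dropping the 20-month replicate 4 left 14, and dropping the 20-month replicate 3 gave 31. When the 11-month libraries were left out of the fit, 14 were called. Counts over all genes moved too. Of all genes, 1657 were called lower as reported, 990 to 1941 with each library left out and 1152 without the 11-month libraries.

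**Figure D3:**
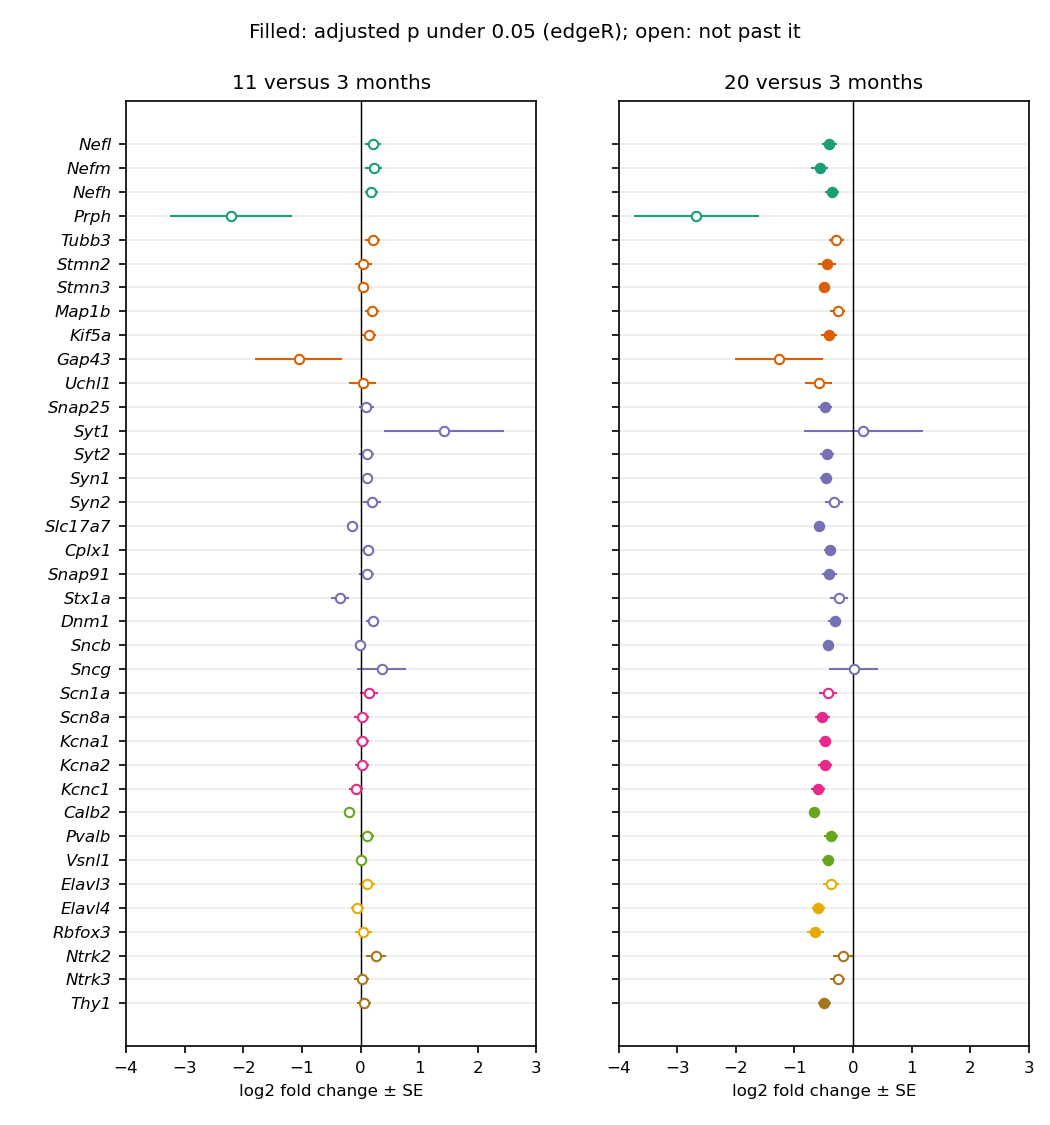
Log2 fold change with its SE (edgeR) of each of the 37 genes at 11 versus 3 months (left) and 20 versus 3 months (right), with filled points for adjusted p under 0.05. Points on the left scatter around 0 and none is filled, and 24 points on the right are filled, all below 0. The 2 comparisons share the 3-month libraries.

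At 11 months compared with 3 months, 0 of 37 genes were called in either direction by edgeR or by DESeq2. By edgeR, 0.58% of all genes were called lower and 0.979% higher, and DESeq2 called 440 of all genes lower and 579 higher. At the low edgeR shares, 0 calls among 37 genes do not set the members apart from all genes. At an unadjusted p under 0.05 there were 2 members, both lower, by either tool, against 9.32% of all genes lower by edgeR and 8.56% by DESeq2. The median log2 fold change was 0.10 and 8 of 37 genes were below 0, against 52.0% of all genes. This direction turned with either covariate chosen after seeing the data, to a median of -0.084 with 29 of 37 genes below 0 with the mucosal marker score, and to -0.054 with 25 of 37 with the central glia marker score. Calb2 averaged 2083 ± 84.0 CPM at 11 months and 2375 ± 269 CPM at 3 months (log2 fold change -0.19, SE 0.08, adjusted p = 0.244). Stx1a was the single member without overlap, against 5.75% of all genes, with 4.34, 4.84, 4.27 and 5.08 CPM at 11 months and 5.78, 6.08, 5.74 and 6.02 CPM at 3 months (log2 fold change -0.35, SE 0.15, adjusted p = 0.249). Nefm averaged 2718 ± 203 CPM at 11 months and 2330.1 ± 410.1 CPM at 3 months, a log2 fold change of 0.22 that was not called (adjusted p = 0.457).

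At 20 months compared with 11 months, 29 of 37 genes fell and 0 rose, against a background of 7.9% of all genes called lower and 7.87% called higher. The median log2 fold change was -0.52, 36 of 37 genes were below 0 against 44.9% of all genes, and 26 did not overlap against 10.4%. This comparison shares the 20-month libraries with that against 3 months. Every call in it ended when the score of mucosal epithelium markers was added as a covariate, an alternative chosen after seeing the data. In that fit 0 members and 0 of all genes passed the threshold by edgeR, 17 members had an unadjusted p under 0.05, all lower, against 4.7% of all genes lower at that p, and the members' median was -0.26. The same covariate left 19 members and 1259 of all genes called lower between 20 and 3 months, against 24 and 1657 without it.

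The 8 members with the smallest p between 20 and 11 months included 3 vesicle genes and 2 RNA-binding genes. Stmn3 averaged 383 ± 56.7 CPM at 20 months and 559.8 ± 35.9 CPM at 11 months (log2 fold change -0.55, SE 0.09, adjusted p = 0.00715). Calb2 averaged 1494 ± 66.9 CPM at 20 months and 2083 ± 84.0 CPM at 11 months (log2 fold change -0.48, SE 0.08, adjusted p = 0.00777). Nefm had 1298, 1444, 2093 and 1445 CPM at 20 months, against 2517, 2705, 2999 and 2653 CPM at 11 months, without overlap (log2 fold change -0.79, SE 0.15, adjusted p = 0.00946). Syn1, Slc17a7, Dnm1, Elavl4 and Rbfox3 completed the 8, with log2 fold changes of -0.57, -0.43, -0.52, -0.54 and -0.69 and adjusted p from 0.00826 to 0.0118. Tubb3, Map1b, Scn1a, Elavl3 and Syn2, which were not called against 3 months, were called here with log2 fold changes from -0.57 to -0.46. Without replicate 3 of 11 months, 18 members were called. Of all genes, 1226 were called lower as reported and 453 to 1814 with each library left out.

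**Figure D4:**
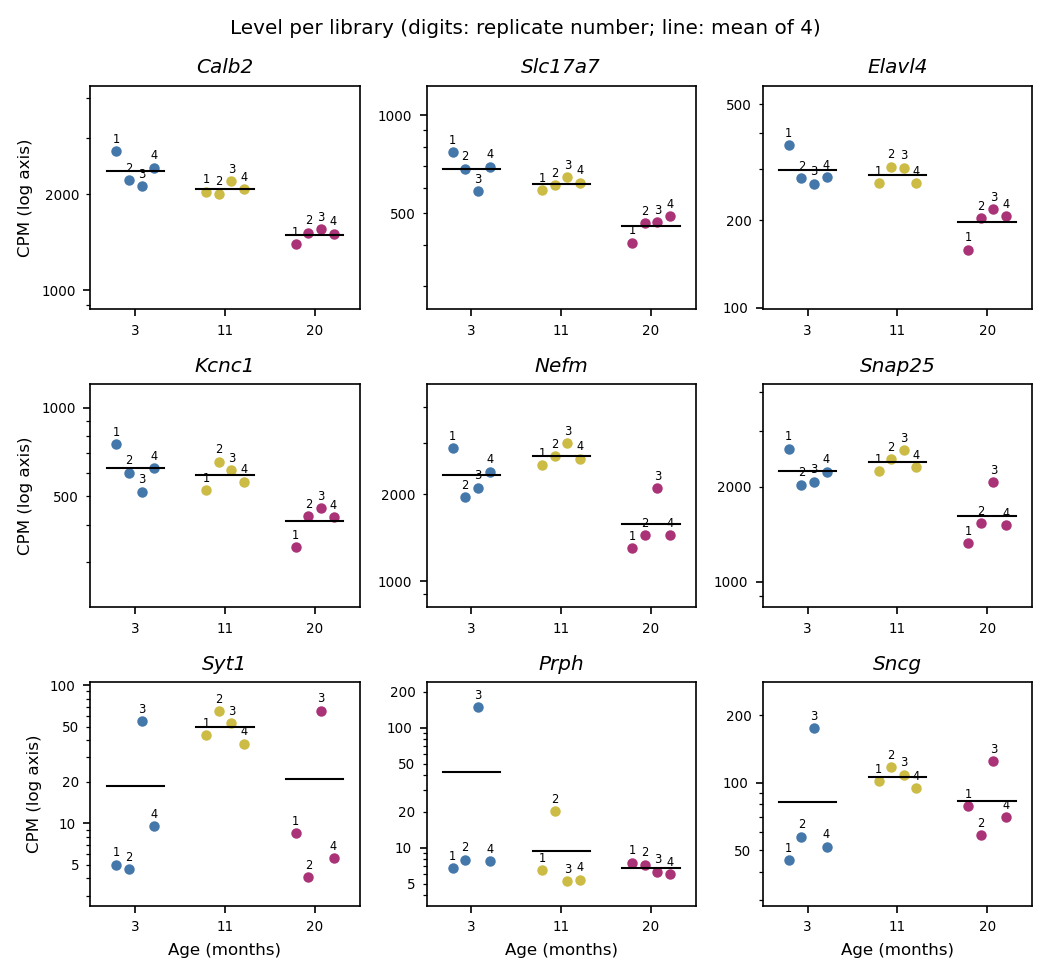
CPM (log axis) in each library at 3, 11 and 20 months for 9 genes, with replicate numbers beside the points and the mean of 4 as a line. Calb2, Slc17a7, Elavl4 and Kcnc1 have all 20-month points below all 3-month points, replicate 3 at 20 months reaches 2093 CPM in Nefm, and Syt1, Prph and Sncg have single libraries far above the rest of their age.

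At 20 months, and less so at the other ages, the libraries differed from each other in the same direction over most members. At 20 months, replicate 3 was the highest library in 34 of 37 genes and in 41 of the 54 companion genes described below, and replicate 1 was the lowest in 31 of 37. Replicate 3 lay within or above the 3-month range in 22 of 37 genes, against 4, 2 and 6 for replicates 1, 2 and 4. These counts of ranks and ranges were not made over all genes, so no background share stands beside them. The members held 2.90%, 2.35%, 2.41% and 2.55% of all counts at 3 months, 2.61%, 2.85%, 2.92% and 2.60% at 11 months, and 1.63%, 1.83%, 2.33% and 1.88% at 20 months. The share of replicate 3 at 20 months was thus just below the lowest at 3 months. At 3 months, replicate 1 was the highest library in 26 of 37 genes. At 11 months the highest library was replicate 3 in 19 genes and replicate 2 in 17.

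Markers of other cells also differed between libraries of one age. The 10 mucosal epithelium markers summed to 69.5, 282, 202 and 468 CPM at 3 months, 78.0, 50.4, 45.3 and 40.9 CPM at 11 months, and 1032, 1057, 41.4 and 541 CPM at 20 months. At 20 months the sum was thus lowest in replicate 3, the library with the highest neuronal levels. At 3 months replicate 1 had the lowest mucosal sum and the highest neuronal sum. At 11 months replicate 4 had the lowest mucosal sum and, just below replicate 1, the lowest neuronal sum. In replicates 1, 2 and 4 at 20 months the mucosal sum came mostly from Bpifa1, a secreted airway protein. It had 930.0, 977 and 477 CPM there and 3.03 CPM in replicate 3. The list was mixed, with log2 fold changes from -3.65 to 2.65 between 20 and 3 months. Of its 7 markers tested, 1 was called higher and 1 lower in that comparison, against 12.0% and 10.7% of all genes. Between 20 and 11 months 1 was called higher and 0 lower, against 7.87% and 7.9% of all genes. The 9 central glia markers summed to 620.2, 192, 428 and 178 CPM at 3 months, 1014, 884, 1137 and 939.96 CPM at 11 months, and 835, 160.4, 1448 and 977 CPM at 20 months. That sum was highest in replicate 3 and lowest in replicate 2 at 20 months. At each age the library with the highest central glia sum also had the highest neuronal sum. This was replicate 1 at 3 months and replicate 3 at 11 and 20 months. The library with the lowest central glia sum was at no age the one with the lowest neuronal sum. A central glia score was also used as a covariate, chosen after seeing the data. Like the mucosal score, it was the mean of the logged marker levels, not their sum. With it, 29 members and 1710 of all genes were called lower between 20 and 3 months. Between 20 and 11 months, 24 members and 736 of all genes were called lower. The part of other tissue in the dissected material was not tested beyond these fits.

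**Figure D5:**
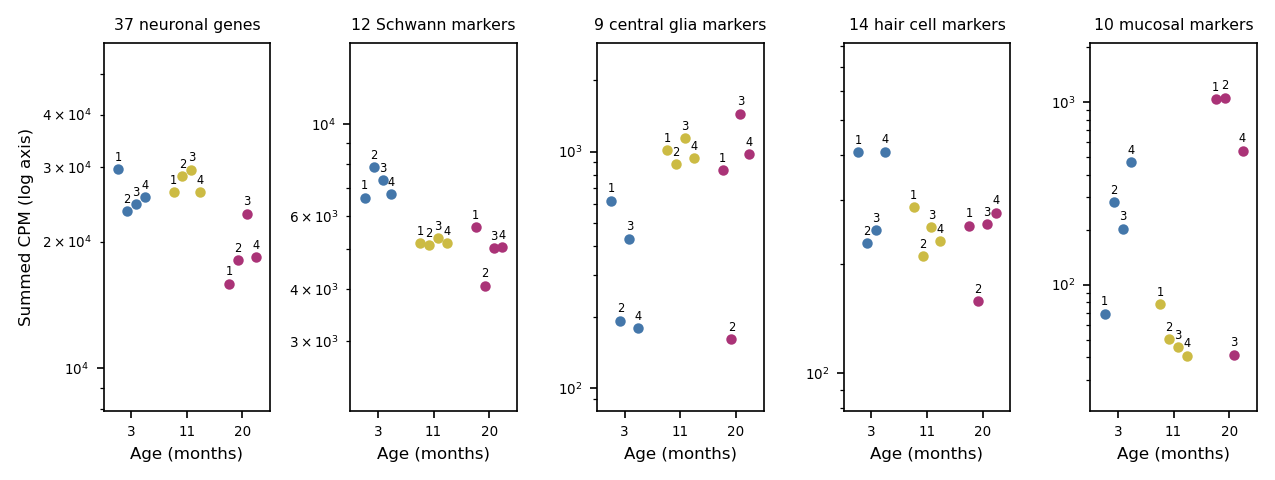
Summed CPM (log axis, own scale per panel) in each library at 3, 11 and 20 months of the 37 neuronal genes and of markers of Schwann cells, central glia, hair cells and mucosal epithelium, with replicate numbers beside the points. At 20 months replicate 3 has the highest neuronal sum, the highest central glia sum and the lowest mucosal sum, 41.4 CPM.

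In a few members, single libraries stood far from the others of their age. Syt1 had 5.01, 4.65, 55.0 and 9.54 CPM at 3 months, 43.5, 64.4, 52.8 and 37.6 CPM at 11 months, and 8.45, 4.06, 65.3 and 5.58 CPM at 20 months. Replicate 3 at 3 and at 20 months thus lay at the 11-month level and the other libraries of those ages below it. Calb1, a calcium-binding protein of the central neuron list, had 27.1, 17.1, 15.7 and 22.1 CPM at 3 months, 138 to 181 CPM at 11 months, and 52.6, 42.9, 209 and 46.0 CPM at 20 months. Its replicate 3 was the highest at 20 months, like that of Syt1, and the lowest at 3 months, unlike that of Syt1. Of the 10 genes of the central neuron list, 7 were tested. Between 20 and 3 months 2 were called higher and 0 lower, against 12.0% and 10.7% of all genes. At 3 and at 20 months 5 of the 10 averaged under 1 CPM. The list's median log2 level over the 3-month mean was 0.27, -0.01, 0.28 and 0.18 in the libraries at 20 months. The part of central neurons was not tested. Prph, the peripherin of type II neurons, had 5.98 to 7.47 CPM at 20 months, against 6.78, 7.91, 149 and 7.71 CPM at 3 months. Its log2 fold change between 20 and 3 months, -2.67 with an SE of 1.07, was not called (adjusted p = 0.0988), and it was -0.15 without replicate 3 of 3 months. Sncg, which codes for gamma-synuclein, had 78.7, 58.1, 125 and 70.2 CPM at 20 months, against 45.2, 57.4, 175 and 51.8 CPM at 3 months. Its log2 fold change of 0.01 took the opposite sign with DESeq2 size factors. Gap43 had 11.9 CPM in the same replicate 3 of 3 months and 1.09 to 1.68 CPM in the other 3-month libraries. Sncg is also used by fat cells. Adipocyte markers summed to 0.153 to 3.68 CPM at 20 months and 0.907 to 3.18 CPM at 3 months, with 0.907 CPM in replicate 3 of 3 months. Of these 6 markers, 2 passed the filter on low counts. The part of fat cells in the Sncg result was not tested. Uchl1 had 183, 201, 351 and 196 CPM at 20 months, against 328, 269, 504 and 297 CPM at 3 months (log2 fold change -0.59, SE 0.23, adjusted p = 0.0893), and its exons overlap those of Uchl1os. Leaving out replicate 3 of both 3 and 20 months was also chosen after seeing the data. It gave 30 members called lower and 1 called higher, Sncg, between 20 and 3 months. Between 11 and 3 months, 2 were called higher, Syt1 and Sncg. Over all genes, that fit called 1812 lower and 1799 higher between 20 and 3 months, and 308 higher between 11 and 3 months.

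A list of 54 companion genes, of vesicles, cytoskeleton, channels and spiral ganglion identity, was lower at 20 months too. Between 20 and 3 months 29 of 54 were called lower (53.7%, against 10.7% of all genes) and 0 higher, with a median of -0.40. Between 20 and 11 months 39 of 54 were called lower (72.2%, against 7.9% of all genes) and 0 higher, with a median of -0.46, calls that rest on the fit without the mucosal score. Between 11 and 3 months 0 of 54 were called, against 0.58% of all genes called lower and 0.979% called higher. An unadjusted p under 0.05 in either direction was found in 8, against 18.1% of all genes. The vesicle glycoprotein Sv2c averaged 189.7 ± 24.7 CPM at 20 months and 354 ± 51.1 CPM at 3 months (log2 fold change -0.90, SE 0.11, adjusted p = 0.000384). Prox1, a transcription factor of spiral ganglion neurons and supporting cells, averaged 57.7 ± 5.90 CPM at 20 months and 95.5 ± 16.7 CPM at 3 months (log2 fold change -0.73, SE 0.12, adjusted p = 0.00158). The potassium channel subunit Kcnab2 was called at -0.54. Vamp2 and Gata3 were not called, at 0.11 and 0.09.

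Markers of the cells around the neurons were measured in the same libraries. Of 12 Schwann cell markers, 8 were called lower between 20 and 3 months (66.7%, against 10.7% of all genes), and their sum was 4084 to 5641 CPM at 20 months and 6655 to 7867 CPM at 3 months. The Schwann sum was 5114 to 5308 CPM at 11 months. The neuronal sum was 26150.8 to 29598.3 CPM at 11 months and 23619.5 to 29663.8 CPM at 3 months. Between 11 and 3 months, 2 of 12 Schwann markers were called lower and 1 higher, against 0.58% and 0.979% of all genes. In that comparison 0 of the 37 neuronal genes were called, and no order of the changes was tested. Hair cell markers, all above 0 in the tissue, summed to 158 to 277 CPM at 20 months and 228 to 408 CPM at 3 months, and 2 of 14 were called lower, a share of 14.3% that is near the 10.7% of all genes. All 8 macrophage markers were called higher at 20 months than at 3 months, against 12.0% of all genes, with sums of 258 to 483 CPM at 20 months and 139 to 178 CPM at 3 months. The part of these cells in the neuronal result was not tested.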

How the data were processed

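RNA was sequenced from 12 inner ear and 12 organoid samples with an unstranded TruSeq kit, per the labels' protocols. The deposited counts are whole reads per gene, left unnormalized by the authors. The deposited FPKM values were divided by the authors by gene length and by library total. Per the submitters' processing notes, the mm10 build and the tools HISAT2, HTSeq, Trimmomatic and DESeq2 were used, whose versions are not given in the sources used.

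The 12 inner ear libraries were fitted together (R 4.3.3, edgeR 4.0.16) on age, with TMM factors, genes kept by filterByExpr (15525 of 18440) and robust quasi-likelihood dispersion. Tests were two-sided, and the Benjamini-Hochberg adjusted p over every gene tested had to be under 0.05. The SE is the absolute log2 fold change over the square root of F. CPM uses the TMM-scaled library size. Totals were 30599012 to 38451292 counts per inner ear library, and the biological coefficient of variation was 19.8%. Replicate counts differed by more than sampling noise, with chi-square values of 16.5 to 90.0 times their degrees of freedom. The pipeline was tested on simulated data. Organoid FPKM values were described without a test, and organoid counts were not analysed here.

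The members and lists were chosen with earlier results of these data known, so no test over a list is given. Full statistics were given to at most 8 called members per comparison with the smallest p and to the member of each functional subgroup with the highest mean FPKM. Prph, Syt1, Sncg, Gap43 and Uchl1 were described further after their values were seen. Promoters were taken from RefSeq (GRCm38.p6), and exon overlaps from GENCODE. The alternatives were DESeq2 size factors, the Wald test of DESeq2 1.42.0, omission of the count filter, fits restricted to the ages compared, a replicate block, limma-trend (limma 3.58.1) on log2(FPKM + 1), and each library left out in turn. Leaving out both replicate-3 libraries, and mucosal and central glia scores as covariates, were added after seeing the data. Each score was the mean of log2(CPM + 1) over the markers of its list, with equal weight per marker. Figures were drawn with matplotlib 3.10.9. Some genes of the companion and marker lists are not reported here by name.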

Additional observations from a re-analysis of the deposited data

Results flagged for a closer look

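In 11 of the 111 groups of 4 libraries (37 genes at 3 ages), 1 library stood far from the other 3 by Dixon's criterion at 95%, which sets its gap to the nearest library against the group's range. Chance flags about 1 in 20 groups, and the genes are not independent, since they share libraries.

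Replicate 3 of 3 months was far above the others of its age in Prph, with 149.5 CPM, in Gap43, with 11.88 CPM, in Syt1, with 54.96 CPM, and in Sncg, with 175.1 CPM. At 20 months, replicate 3 was far above the others in Stmn3, with 467.4 CPM, in Uchl1, with 351.3 CPM, and in Syt1, with 65.34 CPM. Replicate 1 of 3 months was far above the others in all 3 RNA-binding members, with 171.1 CPM in Elavl3, 361.3 CPM in Elavl4 and 58.06 CPM in Rbfox3. Replicate 2 of 11 months was far above the others in Prph, with 20.19 CPM.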

How the results depend on the processing

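The direction of the members' median between 20 and 3 months and between 20 and 11 months held under every alternative run, from -0.56 to -0.36 and from -0.64 to -0.44 with each library left out. Members called lower between 20 and 3 months, 24 as reported, numbered 13 to 31 with each library left out, 14 in a fit of only the libraries compared, 21 with the replicate block, 22 by limma-trend, 23 with no count filter and 26 by DESeq2, and 1 was called higher with both replicate-3 libraries left out. Between 20 and 11 months, 29 as reported became 18 to 33 with each library left out and 0 with the mucosal score, where the members' median was -0.26. Between 11 and 3 months, 2 members were called higher with both replicate-3 libraries left out, and the median reversed to -0.084 with the mucosal score and -0.054 with the central glia score. The cause was not tested. Fits with fewer libraries have fewer degrees of freedom, and the part of this in the counts was not tested either. The main fit did not pair mice by replicate number. Correlations of same-numbered libraries of different ages ran from -0.345 to 0.371 over 12 pairs. Those of differently numbered libraries of different ages ran from -0.338 to 0.303. Whether equal numbers mark a shared batch was not tested. With the replicate block, 28 members and 897 of all genes were called lower between 20 and 11 months.

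Counts over all genes moved as well. Between 11 and 3 months, genes lower and higher were 254 and 543 with only the libraries compared, 46 and 84 with the replicate block, 440 and 579 by DESeq2, 40 and 72 by limma-trend, 186 and 308 with both replicate-3 libraries left out, 23 and 33 with the mucosal score, 6 and 12 with the central glia score, and 9 to 49 and 29 to 88 with each library left out. Between 20 and 11 months they were 1856 and 1871 with both replicate-3 libraries left out, 0 and 0 with the mucosal score, 736 and 738 with the central glia score, and 453 to 1814 and 334 to 1818 with each library left out. Between 20 and 3 months they were 990 to 1941 and 1221 to 2010 with each library left out. In that comparison they were 1152 and 1322 with only the libraries compared, 1383 and 1556 with the replicate block, and 1294 and 2103 by limma-trend. With no count filter they were 1641 and 1701, and by DESeq2 2033 and 2236, against 1657 and 1868 as reported.

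The single genes that changed sign were not called in the comparison concerned. With DESeq2 size factors, the reversed log2 fold changes were, between 20 and 3 months Sncg -0.0016. With no count filter, the reversed log2 fold changes were, between 20 and 3 months Sncg -0.0024. With the DESeq2 Wald test, the reversed log2 fold changes were, between 20 and 3 months Sncg -0.0025. With both replicate-3 libraries left out, the reversed log2 fold changes were, between 20 and 3 months Syt1 -0.086, and between 11 and 3 months Prph 0.32, Gap43 0.53, Scn8a -0.043, Kcna1 -0.021, Kcna2 -0.017, Vsnl1 -0.050 and Ntrk3 -0.0087. With the mucosal score, the reversed log2 fold changes were, between 20 and 3 months Ntrk2 0.015, and between 11 and 3 months Stmn2 -0.17, Stmn3 -0.083, Kif5a -0.068, Uchl1 -0.27, Snap25 -0.088, Syt2 -0.041, Syn1 -0.054, Syn2 -0.034, Cplx1 -0.028, Snap91 -0.070, Scn1a -0.088, Scn8a -0.14, Kcna1 -0.088, Kcna2 -0.12, Pvalb -0.033, Vsnl1 -0.084, Elavl3 -0.080, Rbfox3 -0.16, Ntrk2 -0.010, Ntrk3 -0.15 and Thy1 -0.12, and between 20 and 11 months Prph 0.62, Gap43 1.05, Stx1a -0.10, Sncg 0.27, Ntrk2 0.024 and Ntrk3 0.012. With the central glia score, the reversed log2 fold changes were, between 20 and 3 months Syt1 -1.15 and Sncg -0.25, and between 11 and 3 months Stmn2 -0.13, Stmn3 -0.046, Kif5a -0.027, Uchl1 -0.23, Snap25 -0.038, Syt1 -0.054, Syn1 -0.033, Sncg -0.059, Scn8a -0.081, Kcna1 -0.064, Kcna2 -0.073, Vsnl1 -0.064, Elavl3 -0.074, Rbfox3 -0.11, Ntrk2 -0.033, Ntrk3 -0.12 and Thy1 -0.048, and between 20 and 11 months Gap43 0.12. Between 20 and 3 months with each library left out, log2 fold changes that changed sign ranged over -1.63 to 0.31 for Gap43, -1.62 to 1.70 for Syt1 and -0.26 to 0.69 for Sncg. Between 11 and 3 months with each library left out, log2 fold changes that changed sign ranged over -2.90 to 0.34 for Prph, -0.029 to 0.16 for Stmn2, -1.35 to 0.55 for Gap43, -0.052 to 0.28 for Uchl1, -0.023 to 0.041 for Sncb, -0.025 to 0.14 for Scn8a, -0.0030 to 0.13 for Kcna1, -0.014 to 0.14 for Kcna2, -0.14 to 0.033 for Kcnc1, -0.032 to 0.12 for Vsnl1, -0.086 to 0.066 for Elavl4 and -0.051 to 0.11 for Ntrk3. Between 20 and 11 months with each library left out, log2 fold changes that changed sign ranged over -0.68 to 0.22 for Prph and -0.58 to 0.086 for Gap43.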
